A study of Mus musculus with 8 samples.

Results

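TIM-3-expressing CD4 T cells with high eGFP were compared with TIM-3-expressing CD4 T cells with low eGFP, all sorted from the spleens of transgenic mice after tamoxifen. The comparison used 6 of the 8 RNA sequencing libraries of the series, 3 of each kind, chosen by their labels, and covered every gene with enough reads. Both groups carried Foxp3-eGFP-Cre-ERT2 and, from a cross, FSF-TIM-3; in them the Foxp3 gene drives eGFP together with a Cre recombinase that tamoxifen activates, and both received tamoxifen on 5 consecutive days. GFPhi (n = 3) is the group labelled TIM-3+FLAG+GFP+FoxP3+, and GFPlow (n = 3) is the group labelled TIM-3+FLAG+GFP-FoxP3-, although the titles of both call the cells Treg. The other 2 libraries, of TIM-3-negative GFP+ cells from mice without the TIM-3 transgene, were not part of this comparison. The labels give libraries the numbers 1 to 3 in each group. They do not state strain, age, sex or whether a library came from 1 mouse or several. The p-values thus measure only the spread between these libraries, which may be technical in part. Values below are CPM, read counts per library size scaled by TMM, listed for libraries 1, 2 and 3 in that order. Differences are log2 fold changes of GFPhi over GFPlow ± SE, and a gene was called at an adjusted p (edgeR's quasi-likelihood test, Benjamini-Hochberg over all genes tested) below 0.05.

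Regulatory T (Treg) cells are CD4 T cells that hold back other immune cells, and the transcription factor Foxp3 maintains their identity. They depend on interleukin-2 from other T cells, receive constant T cell receptor and costimulatory signals, and in an activated state leave the naive recirculation programme and enter tissues. TIM-3, the product of Havcr2, is a surface receptor found on activated and chronically stimulated T cells and on activated Treg cells.

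The markers followed the sort labels. Foxp3 (ENSMUSG00000039521, chromosome X, 7573644 to 7595245 in GRCm38) stood at 63.5, 72.1 and 85.1 CPM in GFPhi and 2.58, 2.07 and 5.11 CPM in GFPlow, and the difference was 4.50 ± 0.34, adjusted p = 0.000245. Il2ra, the high-affinity interleukin-2 receptor chain CD25 (ENSMUSG00000026770, chromosome 2, 11642807 to 11693193 in GRCm38), stood at 579.6, 606 and 642 CPM in GFPhi and 7.67, 12.2 and 17.2 CPM in GFPlow (5.63 ± 0.29, adjusted p = 5.18e-05). Lrrc32, which presents latent TGF-beta on the cell surface (ENSMUSG00000090958, chromosome 7, 98489283 to 98502181 in GRCm38), stood at 182, 159 and 159 CPM in GFPhi and 0.868, 1.32 and 3.2 CPM in GFPlow (6.53 ± 0.43, adjusted p = 0.000128). No library of one group overlapped the other for these genes. Of 23 Treg identity genes tested, 21 were higher in GFPhi and none lower, with a median log2 fold change of 2.68; Tigit and Icos were the 2 not called. Since the cells were sorted on Foxp3 and its reporter, these counts check the labels and are not independent results. Cd3e ran from 450.9 to 519 CPM over the 6 libraries, and Cd8a from 0.159 to 4.29 CPM.

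Havcr2 (ENSMUSG00000020399, chromosome 11, 46454935 to 46481255 in GRCm38) was part of the sort gate in both groups and stood at 1608, 1141 and 1882 CPM in GFPhi and 275, 134 and 569.9 CPM in GFPlow. Every GFPhi library lay above every GFPlow library, but the spread within GFPlow was more than 4-fold and the call (2.24 ± 0.54, adjusted p = 0.0472) was lost with GFPlow library 1 or any 1 GFPhi library left out (largest adjusted p 0.133, without GFPhi library 1), as well as with upper quartile scaling and with either other filter on low counts. Reads of the transgene and of the endogenous gene cannot be told apart in these counts.

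Total counts ran from 46705459 to 51254169 per library. Correlations of log2 CPM were 0.953 to 0.968 within a group and 0.922 to 0.935 between groups. Xist, expressed from the inactive X chromosome, stood at 249 CPM in GFPhi library 3 and 195 CPM in GFPlow library 3 and at or below 0.279 CPM in the others, whereas the Y-linked Ddx3y was at 0 in both libraries numbered 3 and between 204 and 241 CPM elsewhere. Each group thus held 1 library with the female pattern. With both libraries numbered 3 left out, 1440 genes were called.

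Of 17056 genes tested, 2105 (12.3%) were called, 1171 higher in GFPhi (6.87%) and 934 lower (5.48%). A change over 2-fold was called for 1011 genes (5.93%), 677 of them higher (3.97%) and 334 lower (1.96%). All GFPhi libraries lay on one side of all GFPlow libraries for 5351 genes (31.4%), 2811 with GFPhi above (16.5%) and 2540 with GFPhi below (14.9%). The median log2 fold change of all genes tested was 0.01. The number of calls fell to 1383 without GFPhi library 1, 1254 without GFPhi library 2, 1387 without GFPlow library 1 and 1390 without GFPlow library 2. In a fit that also held the 2 libraries of mice without the transgene, 426 genes were called (72.3% of them higher, against 55.6%), and DESeq2 called 3150. The gene groups below are lists compiled with earlier results of these data known, and their counts are given beside these shares as descriptions. Members named below were mostly chosen by a small adjusted p or after their values were seen. Separate groups among them thus describe levels and add no support, beside 31.4% of all genes tested.

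**Figure D1:**
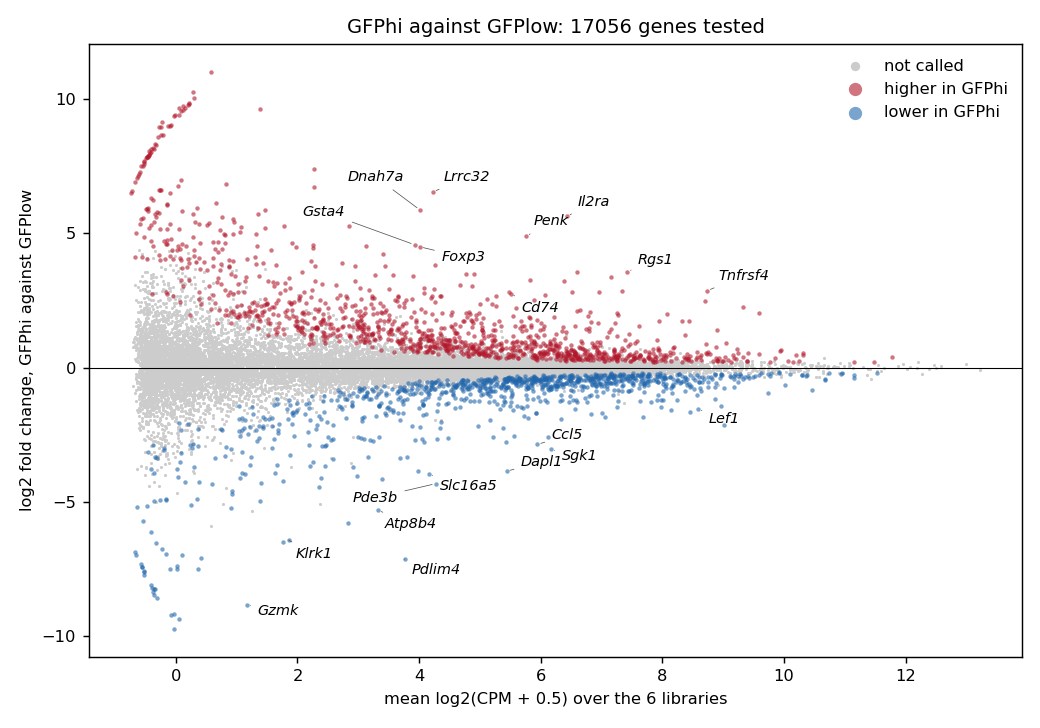
Log2 fold change of GFPhi over GFPlow (vertical axis) against the mean log2 of CPM plus 0.5 over the 6 libraries (horizontal axis) for 17056 genes; 1171 called genes are red (higher in GFPhi), 934 are blue (lower) and the rest grey. Treg genes such as Il2ra and Lrrc32 lie at the top and Pdlim4 and Gzmk at the bottom; the arcs of points at the far left are genes at or near 0 in one group, whose fitted fold depends on the prior count.

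Outside the Treg identity list, the largest higher values among well-expressed genes belonged to a mixed set of signalling and secreted products. Penk (ENSMUSG00000045573, chromosome 4, 4133531 to 4138819 in GRCm38), which encodes the precursor of enkephalin opioid peptides, stood at 328, 364 and 229 CPM in GFPhi and 17.9, 6.82 and 6.4 CPM in GFPlow (4.89 ± 0.45, adjusted p = 0.00078). Rgs1, which shortens G protein signals from chemokine receptors, stood at 629, 649 and 544 CPM in GFPhi and 69.5, 29.8 and 53.8 CPM in GFPlow (3.57 ± 0.29, adjusted p = 0.000317). Il1r2, a decoy receptor for interleukin-1, stood at 140.3, 122 and 47.4 CPM in GFPhi and 11.4, 9.27 and 6.73 CPM in GFPlow (3.50 ± 0.41, adjusted p = 0.00182). GFPhi library 3 was the lowest of its group for Il1r2. The choice of these largest rises required that the groups not overlap. Ccr8, a chemokine receptor of activated and tissue Treg cells, stood at 87.7, 74.3 and 61.4 CPM in GFPhi and 9.03, 5.47 and 11.7 CPM in GFPlow (3.09 ± 0.28, adjusted p = 0.000546). Gsta4, a glutathione transferase for lipid peroxidation products, differed by 4.57 ± 0.26, Pdzk1ip1 by 4.23 ± 0.50, Mctp1, a membrane protein with C2 domains, by 3.46 ± 0.15 and Serpinc1, the antithrombin gene, by 2.98 ± 0.38. Dnah7a, an axonemal dynein heavy chain, differed by 5.87 ± 0.61 and Naip5, an inflammasome receptor, by 3.79 ± 0.26, but both have close paralogs among which counting could divide reads. Lad1 differed by 3.39 ± 0.60, a call lost without a filter on low counts, and Cd79b by 2.95 ± 0.48.

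The genes that were lowest in GFPhi relative to GFPlow included transporters, kinases and enzymes of second messengers. Pdlim4 (ENSMUSG00000020388, chromosome 11, 54054928 to 54069014 in GRCm38), a PDZ and LIM domain adaptor of the actin cytoskeleton, stood at 0.534, 0.518 and 1.85 CPM in GFPhi and 135, 124 and 149.8 CPM in GFPlow (-7.13 ± 0.45, adjusted p = 0.000118). Slc16a5 (ENSMUSG00000045775, chromosome 11, 115462474 to 115474398 in GRCm38), of the monocarboxylate transporter family, stood at 5.46, 2.95 and 4.63 CPM in GFPhi and 82.2, 63.6 and 57.9 CPM in GFPlow (-3.96 ± 0.25, adjusted p = 0.000126). Sgk1 (ENSMUSG00000019970, chromosome 10, 21882184 to 21999903 in GRCm38), a kinase induced by salt and glucocorticoids that acts downstream of PI3 kinase, stood at 24.6, 22 and 28.3 CPM in GFPhi and 247, 172 and 198 CPM in GFPlow (-3.04 ± 0.16, adjusted p = 5.27e-05). None of these levels overlapped between the groups, which the choice of the largest falls required. Atp8b4, a lipid flippase, differed by -5.30 ± 0.26, Lypd6b by -4.14 ± 0.29, Dapl1 by -3.85 ± 0.20, Mctp2, the paralog of Mctp1, by -3.36 ± 0.28 and Hid1, of the secretory pathway, by -3.33 ± 0.27. Vipr1, a receptor for vasoactive intestinal peptide, stood at 4.86, 5.38 and 1.91 CPM in GFPhi and 50.2, 60.2 and 64.7 CPM in GFPlow (-3.85 ± 0.36, adjusted p = 0.000673). Mctp1 and Mctp2 were thus called in opposite directions.

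**Figure D2:**
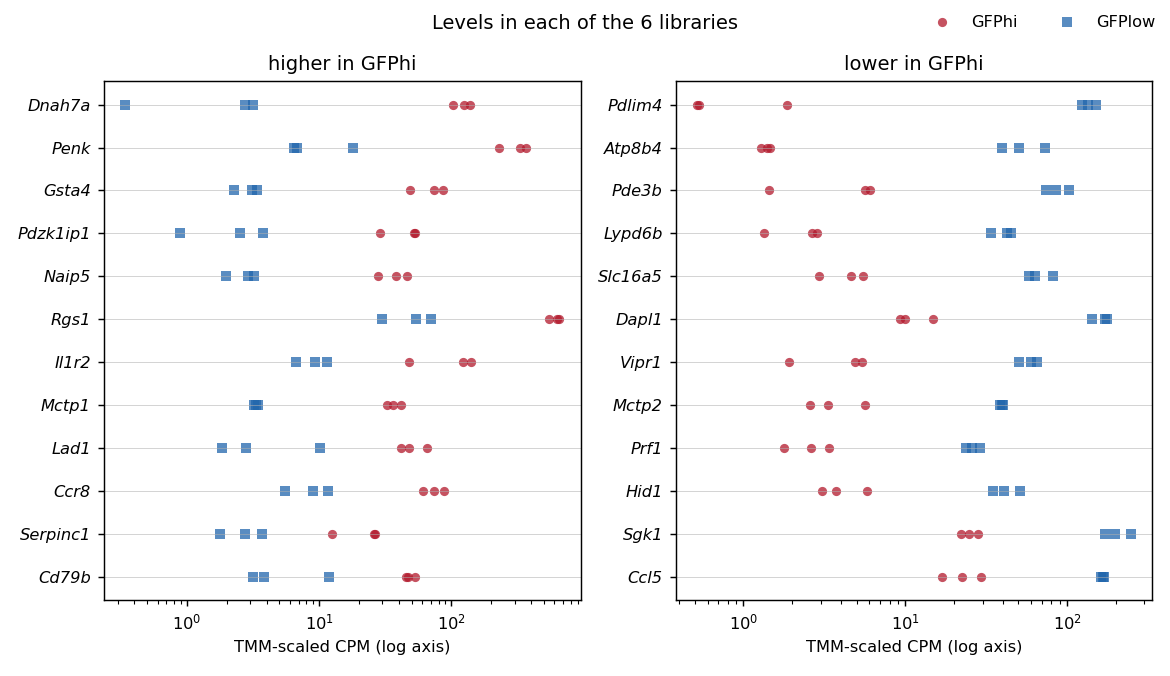
TMM-scaled CPM (log axis) of the 12 genes with the largest rise and the 12 with the largest fall outside the Treg identity list, 1 point per library, red circles GFPhi and blue squares GFPlow. No gene shows overlap between the groups, which the choice of genes required; Rgs1 sits near 600 CPM in GFPhi and Sgk1 near 200 CPM in GFPlow.

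Genes of naive and stem-like T cells were mostly lower in GFPhi. Of 25 tested, 16 were lower and 1 higher, with a median log2 fold change of -0.93, beside 5.48% lower among all genes tested and their median of 0.01. Lef1, a Wnt-pathway factor of naive T cells, stood at 218, 222 and 237 CPM in GFPhi and 656, 654 and 656 CPM in GFPlow (-1.54 ± 0.05, adjusted p = 2.47e-05). Its partner Tcf7, which encodes TCF-1, stood at 195, 210.0 and 193 CPM in GFPhi and 667, 658 and 541 CPM in GFPlow (-1.64 ± 0.09, adjusted p = 6.44e-05). Satb1, a chromatin organiser of thymocytes and naive cells, stood at 145, 159 and 148 CPM in GFPhi and 427, 421 and 402 CPM in GFPlow (-1.47 ± 0.06, adjusted p = 2.47e-05). All 3 factors were lower in every GFPhi library than in any GFPlow library. Igfbp4, a common naive marker, differed by -2.13 ± 0.12, Tdrp by -2.77 ± 0.27, Txk, a Tec-family kinase, by -1.26 ± 0.07, Actn1 by -1.25 ± 0.10 and Bach2, a repressor that restrains effector differentiation, by -0.50 ± 0.08. Il7r, the receptor of the survival cytokine interleukin-7, stood at 297, 259 and 387 CPM in GFPhi and 706, 654 and 759.7 CPM in GFPlow (-1.17 ± 0.14, adjusted p = 0.00193). Bcl2 was the 1 higher gene (0.53 ± 0.10), and its call was lost without GFPhi library 2.

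Receptors that guide cells through tissues moved in both directions. Of 23 chemokine and lipid trafficking receptor genes tested, 5 were higher and 6 lower. Ccr7 and S1pr1, which bring cells into and out of lymph nodes, differed by -0.93 ± 0.11 and -0.75 ± 0.09. Ccr6, a receptor for Ccl20, stood at 55.4, 49.5 and 90.8 CPM in GFPhi and 23.6, 11 and 13.6 CPM in GFPlow (2.02 ± 0.33, adjusted p = 0.00749). Ptger2 and Ptger4, receptors for prostaglandin E2, were both higher, at 2.22 ± 0.13 and 0.82 ± 0.10. Cxcr6, Gpr183, a receptor for oxysterols, and Gpr18 were lower, at -1.69 ± 0.21, -0.76 ± 0.12 and -0.85 ± 0.07. Cxcr3 was lower (-0.69 ± 0.12), a call lost without GFPhi library 2. S1pr5, a sphingosine receptor of cytotoxic cells, had 1 count in GFPhi against 223 in GFPlow, a 232-fold ratio (95% counting interval 41.2 to 9.2e+03).

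Adhesion genes were likewise divided, with 5 of 27 higher and 6 lower. Itgae, the integrin chain CD103 that binds E-cadherin, stood at 38.5, 30.2 and 63.5 CPM in GFPhi and 4.5, 6.52 and 8.45 CPM in GFPlow (2.76 ± 0.33, adjusted p = 0.00199). Epcam, an epithelial adhesion molecule, stood at 26.4, 38.6 and 31 CPM in GFPhi and 7.53, 4.02 and 5.13 CPM in GFPlow (2.52 ± 0.26, adjusted p = 0.000994). Both were higher in each GFPhi library than in any GFPlow library. St3gal6, a sialyltransferase of selectin ligands, was lower (-2.65 ± 0.24), as were the integrin gene Itgb3 (-1.45 ± 0.15), Emb, which encodes embigin, a chaperone of monocarboxylate transporters (-1.19 ± 0.11), and Icam2 (-0.67 ± 0.10). With GFPlow library 1 or GFPlow library 2 left out, 3 adhesion genes were called higher instead of 5.

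T cell receptor signalling genes carry or restrain the antigen signal from the receptor to calcium, Ras and NF-kappaB pathways. Of these, 14 of 34 were lower in GFPhi and 1 higher, with a median of -0.17. Themis, a scaffold that tunes receptor signal strength, stood at 68.3, 80.4 and 63.5 CPM in GFPhi and 229, 269 and 258 CPM in GFPlow (-1.83 ± 0.11, adjusted p = 8.04e-05). Every GFPhi library was below every GFPlow library for Themis. Smaller differences were called for the adaptors Grap2 (-0.89 ± 0.08) and Lat (-0.41 ± 0.06), the receptor chain Cd247 (-0.56 ± 0.05), the Ras regulator Rasa3 (-0.66 ± 0.07), Pag1 (-0.74 ± 0.10), the costimulator Cd28 (-0.39 ± 0.06) and Cd4 itself (-0.45 ± 0.06). The kinase gene Lck (-0.27 ± 0.06) was not called without GFPhi library 1 or 3 or GFPlow library 1 or 2, and Prkcq (-0.33 ± 0.08) not without GFPhi library 2 or any 1 GFPlow library. Vav3, the 1 higher gene (0.72 ± 0.16), kept its call only when GFPlow library 2 was the library left out. Zap70 was not called, at 279.5, 228 and 197 CPM in GFPhi and 219, 249.6 and 205 CPM in GFPlow (0.06 ± 0.13, adjusted p = 0.834).

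The response genes that follow receptor signals did not share this direction: 6 of 25 were higher and 1 lower. Dusp4, a nuclear phosphatase of MAP kinases, stood at 10.7, 6.62 and 4.2 CPM in GFPhi and 0.611, 1.15 and 0.595 CPM in GFPlow (3.19 ± 0.46, adjusted p = 0.00429). Gadd45b, a stress sensor, stood at 57.8, 41.5 and 35.1 CPM in GFPhi and 22.8, 20.9 and 15.6 CPM in GFPlow (1.18 ± 0.22, adjusted p = 0.0114). Myc, the growth regulator, stood at 263, 249 and 209 CPM in GFPhi and 138, 128 and 126 CPM in GFPlow (0.88 ± 0.09, adjusted p = 0.00111). The groups did not overlap for these 3 genes. Nr4a1 was called higher (1.13 ± 0.24) but not without GFPhi library 2, GFPlow library 1 or GFPlow library 2. Nr4a3 was called higher (1.77 ± 0.43) but not without GFPhi library 1 or 3 or GFPlow library 1 or 3. Fos and Jun were not called.

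NF-kappaB genes and the TNF family were among the lists with the largest share of higher genes. NF-kappaB proteins are held in the cytoplasm by inhibitors whose own genes they induce, and many TNF-family receptors activate them. Of 20 NF-kappaB factor and inhibitor genes, 10 were higher and 1 lower, with a median of 0.45. Rel, which encodes c-Rel, stood at 128, 86.9 and 111 CPM in GFPhi and 52.3, 54.1 and 47.7 CPM in GFPlow (1.08 ± 0.14, adjusted p = 0.00263). Nfkbia (ENSMUSG00000021025, chromosome 12, 55489410 to 55492647 in GRCm38), which encodes the inhibitor I-kappaB-alpha, stood at 870.2, 691 and 742 CPM in GFPhi and 484, 444 and 498 CPM in GFPlow (0.69 ± 0.09, adjusted p = 0.00264). Nfkb1, the p105 precursor of p50, stood at 197, 177 and 189 CPM in GFPhi and 108, 134 and 108 CPM in GFPlow (0.68 ± 0.10, adjusted p = 0.00411). These 3 genes did not overlap between the groups. Nfkbiz, a nuclear co-activator, differed by 0.91 ± 0.15 and Traf1, an adaptor of TNF receptors, by 0.69 ± 0.06. Nfkb2 (0.69 ± 0.13), the p100 precursor, was no longer called without GFPlow library 1 or 2, and Rela, the p65 subunit, was not called (-0.08 ± 0.07, adjusted p = 0.581). The number of higher genes in the list was 6 without GFPhi library 1 and 7 or 8 with any other single library left out.

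Promoters of 2 of these genes are printed to show where they hold letters of a form that NF-kappaB factors can bind. Binding at these promoters was not measured. RefSeq promoters (GRCm38.p6) were searched on both strands, over the 250 bases before each start. The letters searched were 1 narrow form of the NF-kappaB decamer, GGG followed by any 2 bases and TTTCC. Matches are in capitals, 5′ to 3′ on the strand of the gene. Other forms of the decamer were not searched for and stay in lower case. The Nfkbia window is chr12:55492648-55492897 (minus strand), with the match on the opposite strand from the letters searched, and the Nfkb2 window is chr19:46304487-46304736 (plus strand), before the first of 3 annotated starts.
Nfkbia: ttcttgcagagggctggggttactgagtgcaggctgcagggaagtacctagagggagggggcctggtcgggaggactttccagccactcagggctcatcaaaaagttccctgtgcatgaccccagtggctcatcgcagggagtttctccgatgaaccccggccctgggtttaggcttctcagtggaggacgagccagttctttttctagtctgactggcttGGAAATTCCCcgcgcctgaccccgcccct
Nfkb2: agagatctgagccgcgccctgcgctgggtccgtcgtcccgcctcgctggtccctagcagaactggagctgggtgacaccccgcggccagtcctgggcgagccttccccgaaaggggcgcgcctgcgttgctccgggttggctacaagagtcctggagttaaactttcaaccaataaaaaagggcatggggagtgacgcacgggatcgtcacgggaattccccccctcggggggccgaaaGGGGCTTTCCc
This form of the decamer was found in 37 of 1149 promoters of genes higher in GFPhi (3.22%). These 37 promoters belonged to 34 genes. It was in 6 of 934 promoters of genes lower (0.642%). It was also in 1.52% of 13059 promoters of genes tested and in 1.41% of all 32851 promoters of this length. Higher genes with a match included Rel, Tnfrsf9, Bcl2l1, Ltb and Ccl20, which were picked after the matches were seen. Of 16 NF-kappaB list genes with a promoter in the table, 5 held a match. A match is a run of letters and was not tested for binding. By the same search, TGANTCA (AP-1) was in 5.4% of promoters of higher genes and 3.75% of those of lower genes, TTCNNNGAA (STAT) in 7.22% and 5.78%, and CTTTGAT (TCF/LEF) in 1.74% and 2.89%, beside 4.33%, 6.03% and 2.33% of promoters of all genes tested. The other motifs searched follow as shares of promoters of higher, lower and all tested genes. CCGGAAG (ETS) was in 8.36%, 11.7% and 13.6%, and TGACGTCA (CRE) in 0.957%, 1.5% and 2.53%. GGGCGGG (KLF/SP) was in 39.4%, 44.2% and 39.9%, TGTGGTT (RUNX) in 3.57%, 3.32% and 3.49%, and TGTTTAC (forkhead) in 2.79%, 2.25% and 2.24%.

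TNF family ligands and receptors, apart from those of the Treg list, counted 10 higher and 3 lower genes among 26, with a median of 0.55. Tnfrsf1b, which encodes the TNF receptor TNFR2, stood at 145, 132 and 138 CPM in GFPhi and 46.7, 43.2 and 56.5 CPM in GFPlow (1.50 ± 0.11, adjusted p = 0.000207). Lta, the ligand lymphotoxin alpha, stood at 222, 224 and 188 CPM in GFPhi and 46.5, 50.5 and 44.5 CPM in GFPlow (2.16 ± 0.09, adjusted p = 2.51e-05). Cd40lg, the ligand through which helper cells activate B and dendritic cells, stood at 39.8, 44.7 and 40.7 CPM in GFPhi and 150.1, 164 and 152 CPM in GFPlow (-1.90 ± 0.08, adjusted p = 2.47e-05). Libraries of the 2 groups were separate for all 3 genes, with Cd40lg lower in GFPhi. Tnfrsf8, the CD30 receptor, was higher (3.42 ± 0.63), as were Tnfsf10, which encodes TRAIL (1.30 ± 0.18), Tnfrsf13b (0.65 ± 0.10) and the death receptor gene Fas (0.54 ± 0.09), while its ligand gene Fasl was lower (-0.94 ± 0.12). Cd70, the ligand of CD27, had 195 counts in GFPhi and 0 in GFPlow, or at least 62.5-fold higher if 3 counts are taken as the lower limit of a whole group.

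**Figure D3:**
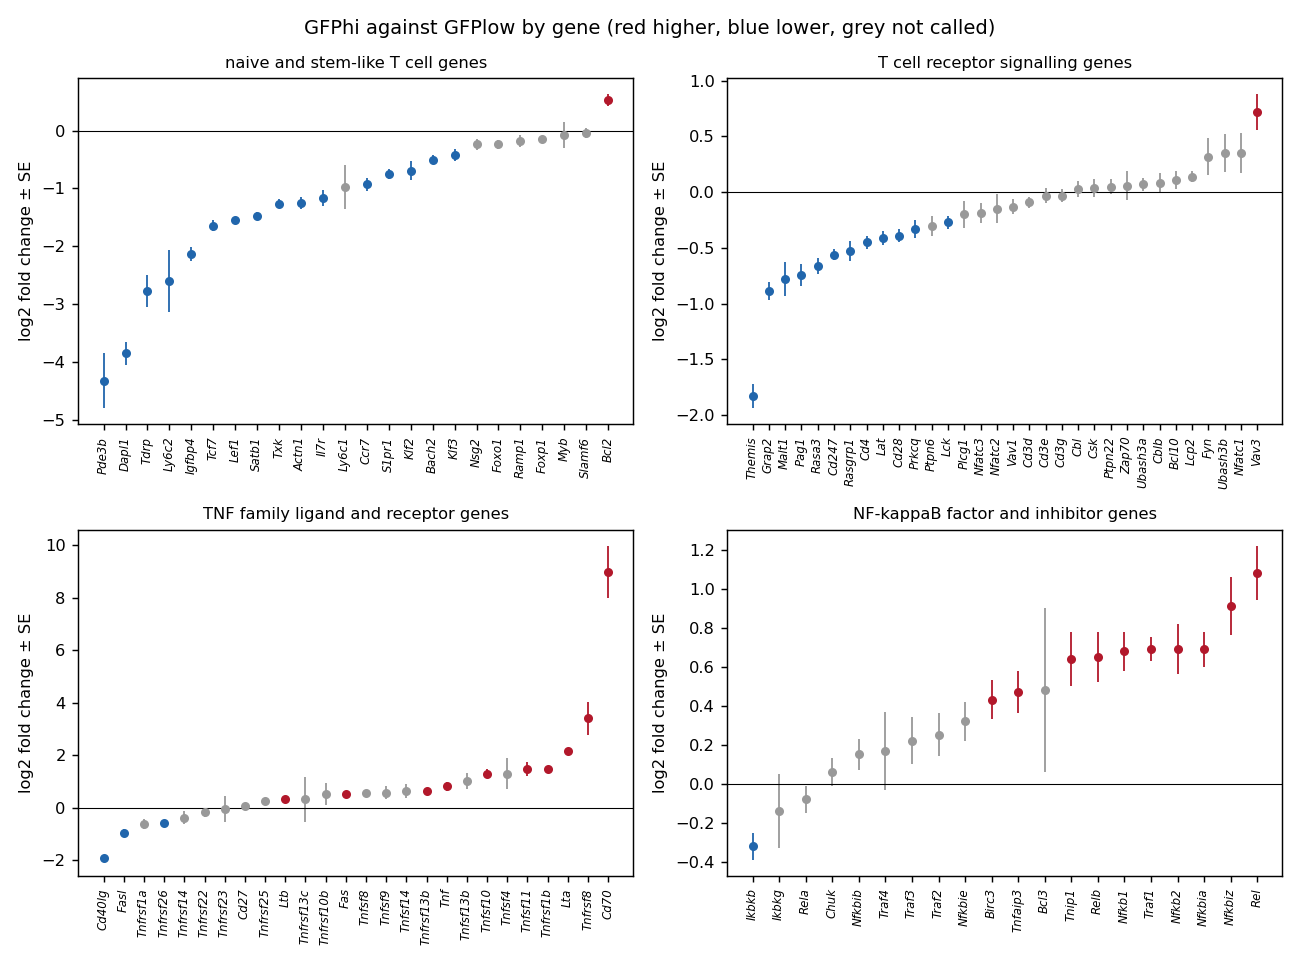
Log2 fold change of GFPhi over GFPlow ± SE (vertical axes) for members of 4 gene lists (horizontal axes), red for called higher, blue for called lower and grey for not called. Blue marks 16 of 24 naive genes shown and 12 of 32 T cell receptor genes shown, and red marks 10 of 26 TNF genes and 10 of 20 NF-kappaB genes; the fitted value of Cd70 depends on the prior count, since GFPlow had 0 counts.

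Genes of cell survival and death were called in 1 direction: of 23 BCL2 family and apoptosis genes, 11 were higher and none lower, with a median of 0.52. Bcl2l1, which encodes the survival protein Bcl-xL, stood at 33.6, 30.3 and 27.2 CPM in GFPhi and 13.3, 18.1 and 16.9 CPM in GFPlow (0.92 ± 0.15, adjusted p = 0.00811). Bid, which promotes death downstream of death receptors, stood at 81.1, 85 and 78.7 CPM in GFPhi and 55.1, 47.3 and 55.9 CPM in GFPlow (0.63 ± 0.09, adjusted p = 0.00424). The genes that were higher thus included both survival and death genes. Bcl2a1b differed by 1.02 ± 0.14 but has near-identical copies. The count of higher genes was 5 without GFPhi library 1, 5 without GFPhi library 2, 6 without GFPlow library 3, 7 without GFPhi library 3 or GFPlow library 1 and 8 without GFPlow library 2.

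Of 31 cytokine receptor genes tested, 7 were higher and 8 lower, and the chains of the TGF-beta receptor were called in opposite directions. Tgfbr1, the kinase chain that transmits the TGF-beta signal, stood at 94.1, 79.2 and 86.3 CPM in GFPhi and 30.7, 35.7 and 33 CPM in GFPlow (1.39 ± 0.10, adjusted p = 0.000212). Tgfbr2, the chain that binds the ligand, stood at 76, 75 and 78.5 CPM in GFPhi and 154, 178 and 150.1 CPM in GFPlow (-1.07 ± 0.08, adjusted p = 0.000245). Tgfbr3, the co-receptor betaglycan, stood at 13.8, 14.1 and 15.9 CPM in GFPhi and 55.2, 75.5 and 64.8 CPM in GFPlow (-2.16 ± 0.14, adjusted p = 0.000127). Thus Tgfbr1 was higher and Tgfbr2 and Tgfbr3 were lower, without overlap between the groups. Both interleukin-10 receptor chains were higher, Il10ra by 0.90 ± 0.16 and Il10rb by 0.69 ± 0.07, as was Il12rb1 (1.39 ± 0.22). Il6ra (-0.67 ± 0.11), Il17ra (-0.54 ± 0.09) and Il1rl2 (-2.91 ± 0.36), a receptor for interleukin-36, were lower.

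Of 20 JAK, STAT and SOCS genes, 3 were higher and 2 lower. Cish, which is induced by STAT5 and dampens interleukin-2 and receptor signals, stood at 259, 229 and 249.5 CPM in GFPhi and 30, 27.9 and 45.8 CPM in GFPlow (2.83 ± 0.19, adjusted p = 0.000134). Socs1, which blocks JAK kinases, stood at 147, 172 and 219 CPM in GFPhi and 58.7, 65.3 and 83.4 CPM in GFPlow (1.38 ± 0.18, adjusted p = 0.00249). Jak1, a kinase that many cytokine receptors share, stood at 771, 779 and 809 CPM in GFPhi and 969.5, 997 and 953 CPM in GFPlow (-0.31 ± 0.04, adjusted p = 0.00429). The 3 genes did not overlap between the groups. Cish and Socs1 were higher and Jak1 lower, and the other lower gene was Pias1, which encodes an inhibitor of activated STAT (-0.30 ± 0.05). Of 23 TGF-beta, Wnt and Notch genes, 6 were higher and 1 lower. Wls, the carrier needed to secrete Wnt proteins, differed by 1.87 ± 0.10, Bmpr2 by 1.76 ± 0.17, Notch2 by 1.06 ± 0.15, and Tgif1 and Skil, repressors of SMAD factors, by 0.94 ± 0.11 and 0.63 ± 0.10.

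Secreted products differed for a few genes with large changes: 7 of 22 were higher and 3 lower. Ebi3, a subunit of interleukin-35 and interleukin-27, stood at 61, 52.4 and 39.7 CPM in GFPhi and 7, 8.44 and 4.94 CPM in GFPlow (2.91 ± 0.24, adjusted p = 0.000372). Ccl5, a chemokine of memory and cytotoxic T cells, stood at 16.9, 29.3 and 22.4 CPM in GFPhi and 169, 166 and 163 CPM in GFPlow (-2.86 ± 0.19, adjusted p = 0.000128). The groups were separate for both genes. Fgl2, a secreted inhibitor made by Treg cells, was higher (1.25 ± 0.23). Ccl20, the ligand of Ccr6, had 783 counts in GFPhi and 0 in GFPlow, or at least 251-fold higher by the same limit, a call that limma voom did not make. Il2 stood at 1.05, 0.917 and 0.506 CPM in GFPhi and 2.41, 5.85 and 3.32 CPM in GFPlow and was called lower (-2.23 ± 0.47, adjusted p = 0.0201), a call lost without GFPhi library 1, 2 or 3 or GFPlow library 2. Without GFPhi library 1 or GFPhi library 2 the count of higher genes in this list was 4, and 1 gene was lower without GFPhi library 2 or GFPlow library 2.

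Inhibitory receptors and ligands other than Havcr2 and the Treg markers counted 5 higher and 1 lower gene among 16. Cd200, the ligand of an inhibitory myeloid receptor, stood at 250.4, 223 and 191 CPM in GFPhi and 94.8, 84 and 83.7 CPM in GFPlow (1.34 ± 0.11, adjusted p = 0.000321). Pdcd1lg2, which encodes the PD-1 ligand PD-L2, stood at 49.3, 36.3 and 39.9 CPM in GFPhi and 7.59, 9.85 and 12.9 CPM in GFPlow (2.05 ± 0.22, adjusted p = 0.00109). Lair1, a collagen receptor, stood at 4.8, 3.97 and 4.03 CPM in GFPhi and 12.6, 14 and 19.1 CPM in GFPlow (-1.84 ± 0.22, adjusted p = 0.00185), the 1 lower gene. For these 3 genes the groups did not overlap. Klrg1 (2.65 ± 0.46) was called except without a filter on low counts.

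Lineage transcription factors differed in both directions. Of 32 tested, 7 were higher and 6 lower. Tbx21, which encodes the type 1 factor T-bet, stood at 6.41, 8.01 and 4.71 CPM in GFPhi and 18.5, 16.1 and 19.2 CPM in GFPlow (-1.49 ± 0.22, adjusted p = 0.00479). Id2, an inhibitor of E proteins that supports effector and innate-like cells, stood at 157, 174 and 163 CPM in GFPhi and 427, 486 and 564 CPM in GFPlow (-1.58 ± 0.10, adjusted p = 0.000128). Ikzf1, which encodes Ikaros, stood at 110.0, 97.6 and 101 CPM in GFPhi and 192, 224 and 206 CPM in GFPlow (-1.01 ± 0.08, adjusted p = 0.000299). These 3 factors were lower in each GFPhi library than in any GFPlow library. Gata3, the type 2 factor that Treg cells of tissues also use, stood at 98.2, 87.1 and 89.2 CPM in GFPhi and 56.5, 61.6 and 57.3 CPM in GFPlow (0.65 ± 0.08, adjusted p = 0.0022). Batf, an AP-1 factor of activated T cells, differed by 0.67 ± 0.11, Ahr, a receptor for environmental and dietary ligands, by 1.45 ± 0.18, Irf8 by 1.51 ± 0.19 and Plagl1 by 3.23 ± 0.58. Irf4 was called higher (1.72 ± 0.36), a call lost without GFPhi library 1 or 3 or GFPlow library 1 or 3. The count of lower factors was 3 without GFPlow library 1 and 3 without GFPlow library 2.

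Genes of killing and of natural killer (NK) receptors were lower in GFPhi for several members. Of 17 cytotoxic granule genes 4 were lower and 3 higher, and of 11 NK-type receptor and adaptor genes 4 were lower and none higher, with a median of -1.30. Klrg1, counted with the inhibitory receptors above, was higher (2.65 ± 0.46). Of 7 tested genes with Klr symbols, 1 was thus higher and 3 lower. Prf1, which encodes the pore-forming protein perforin, stood at 3.38, 2.61 and 1.79 CPM in GFPhi and 23.8, 25.7 and 29 CPM in GFPlow (-3.33 ± 0.25, adjusted p = 0.000245). Klrd1, which encodes CD94, stood at 0, 0.399 and 0.156 CPM in GFPhi and 15.2, 15.1 and 20.3 CPM in GFPlow (-6.50 ± 0.76, adjusted p = 0.00173). Klrk1, which encodes NKG2D, stood at 0.277, 0.259 and 0.273 CPM in GFPhi and 4.34, 23.8 and 41.8 CPM in GFPlow (-6.42 ± 0.86, adjusted p = 0.00303), a call that limma voom did not make. GFPlow library 1 was the lowest of its group for Klrk1, and the groups did not overlap for these 3 genes. Gzmk, a granzyme of memory T cells, had 3 counts in GFPhi and 1471 in GFPlow, a 510-fold ratio (95% counting interval 174 to 2.48e+03). Crtam, a receptor of CD4 T cells with killing capacity, differed by -2.27 ± 0.34 and Klrb1c, which encodes NK1.1, by -3.38 ± 0.54. Cst7, an inhibitor of granzyme activation (2.02 ± 0.13), Hopx (1.71 ± 0.09) and Srgn (0.46 ± 0.05) were higher.

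Markers of other cells were measured beside these groups. The summed level of 9 NK cell markers was 9.61, 6.28 and 5.61 CPM in GFPhi and 28.1, 20.8 and 99.8 CPM in GFPlow. Ncr1, which defines NK cells, stood at 0, 0.937 and 0 CPM in GFPhi and 0, 0 and 8.27 CPM in GFPlow, so that its highest level and the highest sum both fell in GFPlow library 3. Without that library, 4 NK-type receptor genes were called lower and 1 higher. The marker sums of GFPlow libraries 1 and 2 lay above every GFPhi sum. Most of these sums came from Klrb1c (10.6 and 11.7 CPM) and Eomes (10.9 and 7.78 CPM). Klrb1c is also among those receptor genes, so the sums are not separate from them. Monocyte and macrophage markers summed to 14.1, 31.3 and 78.9 CPM in GFPhi and 60.5, 27.9 and 329 CPM in GFPlow, highest in GFPlow library 3, and none of their 9 tested members was called. Of 5 B cell markers tested, Cd79b (52.8, 47.2 and 45.4 CPM in GFPhi and 3.82, 3.18 and 11.9 CPM in GFPlow, 2.95 ± 0.48, adjusted p = 0.00691) and Ighd (1.81 ± 0.43, lost without GFPhi library 1 or 2 or GFPlow library 2 or 3) were higher in GFPhi, while Ms4a1, which encodes CD20, was at or below 0.0214 CPM and the B cell markers summed to 829.7, 960.2 and 1046 CPM in GFPhi and 882, 1027 and 881 CPM in GFPlow, most of it Ighm. Cd74, the invariant chain that B and dendritic cells express strongly, was also higher, at 123, 116 and 109 CPM in GFPhi and 16.2, 15.9 and 19.9 CPM in GFPlow (2.74 ± 0.11, adjusted p = 2.47e-05). No dendritic, CD8, erythroid or platelet marker was called. Mmp9, of the neutrophil markers (-4.09 ± 0.74), and Pecam1, of the stromal and endothelial markers (-0.48 ± 0.09), were lower. Xbp1, of the plasma cell markers (0.60 ± 0.08), was higher, as was the stromal Col1a2 (77 counts in GFPhi and 0 in GFPlow). Neither Mmp9 nor Col1a2 was called without GFPhi library 1. In a bulk library, fewer cells of a type and less RNA per cell cannot be told apart, and the part of such cells in the results was not tested.

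Genes that control cyclic AMP and G protein signals were called in both directions. Of 31 tested, 6 were higher and 7 lower. Pde3b, a phosphodiesterase that degrades cyclic AMP, stood at 1.44, 6.08 and 5.65 CPM in GFPhi and 74.4, 85.2 and 103 CPM in GFPlow (-4.32 ± 0.48, adjusted p = 0.00138). Pde4b stood at 98.8, 103 and 83.3 CPM in GFPhi and 196, 176 and 164 CPM in GFPlow (-0.91 ± 0.10, adjusted p = 0.00144). Pde4d differed by -0.86 ± 0.16 and Adcy7, which makes cyclic AMP, by -0.66 ± 0.08. These 3 phosphodiesterase genes and the cyclase gene were thus all lower. Crem, a cyclic AMP-responsive factor, was higher (0.91 ± 0.13). Regulators of G protein signalling differed among themselves: Rgs1, Rgs9 (4.65 ± 0.83) and Rgs10 (0.60 ± 0.08) were higher and Rgs11 (-2.03 ± 0.17) was lower.

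Protein kinases of growth and stress signals were called in both directions. Of 24 tested, 6 were higher and 5 lower. Sgk3 was lower (-1.11 ± 0.17), like Sgk1. Pim1, a STAT5-induced survival kinase, stood at 32.1, 24.4 and 37.8 CPM in GFPhi and 15.6, 13.8 and 16.4 CPM in GFPlow (1.04 ± 0.18, adjusted p = 0.00858). Its paralog Pim2 stood at 92, 82.7 and 64.3 CPM in GFPhi and 165, 178 and 142 CPM in GFPlow (-1.02 ± 0.14, adjusted p = 0.00353). Pim1 was higher in every GFPhi library and Pim2 lower in every GFPhi library. Map3k8, a kinase of the NF-kappaB and ERK pathways, was higher (1.73 ± 0.21), as was the pseudokinase gene Trib1 (1.96 ± 0.31), and Stk38 was lower (-0.86 ± 0.09).

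Among called genes of the glycolysis, oxidative phosphorylation and cholesterol lists, the largest single differences were in the glycolysis list. Hk2, a hexokinase of the first step of glycolysis, stood at 9.81, 7.02 and 5.74 CPM in GFPhi and 0.453, 0.534 and 1.56 CPM in GFPlow (3.14 ± 0.52, adjusted p = 0.00783). Pdk1, a kinase that inhibits pyruvate dehydrogenase, stood at 77.6, 102 and 99.2 CPM in GFPhi and 255, 257 and 248 CPM in GFPlow (-1.45 ± 0.10, adjusted p = 0.000206). Ldhb, a lactate dehydrogenase subunit, stood at 169, 181 and 157 CPM in GFPhi and 96.8, 82.3 and 84.6 CPM in GFPlow (0.94 ± 0.09, adjusted p = 0.000639). Hk2 and Ldhb were higher in GFPhi and Pdk1 lower, in a list with 3 of 20 higher and 2 lower. Of 45 nuclear oxidative phosphorylation genes 3 were higher (6.67%, beside 6.87% of all genes tested) and none lower, with a median of 0.11. Of 25 cholesterol and fatty acid genes 2 were lower (8.0%, beside 5.48% of all genes tested). With 1 library left out, these counts were 1 to 3 and 0 to 1; the first was 1 without GFPhi library 2, GFPlow library 1 or GFPlow library 2, and the second fell below 2 whichever library was left out. Of the glycolysis list, 1 gene was lower without any 1 library other than GFPlow library 3.

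Transporters and redox enzymes held a few genes with large values. Of 35 transporter genes, 10 were higher and 4 lower. Slc22a2, an organic cation transporter, stood at 18.3, 18 and 16.3 CPM in GFPhi and 1.06, 0.47 and 0.841 CPM in GFPlow (4.46 ± 0.31, adjusted p = 0.000183), and Slc26a11 and Atp1b1, a subunit of the sodium pump, were lower (-1.67 ± 0.21 and -2.58 ± 0.18). Slc2a3, a glucose transporter, was higher (0.72 ± 0.13). Slc16a7, a monocarboxylate transporter, had 141 counts in GFPhi and 1 in GFPlow, a 136-fold ratio (95% counting interval 23.9 to 5.39e+03), opposite in direction to Slc16a5. The number of higher transporters was 5 without GFPhi library 2 and 6 without GFPlow library 1. Of 29 glutathione and redox genes, 6 were higher and 2 lower; Gsto1 stood at 81.8, 87.4 and 83.7 CPM in GFPhi and 19.7, 15 and 16.9 CPM in GFPlow (2.29 ± 0.12, adjusted p = 5.27e-05), and Prdx6 was lower (-0.52 ± 0.06). Higher redox genes were 2 without GFPlow library 1, 3 without GFPhi library 2, 3 without GFPlow library 2 and 4 without GFPhi library 1 or GFPhi library 3.

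Cytoskeletal genes changed in 17 of 32 cases, 11 higher and 6 lower. Myo1e, a membrane-bound myosin, stood at 105, 72.4 and 71.4 CPM in GFPhi and 15.7, 13.6 and 13.1 CPM in GFPlow (2.55 ± 0.17, adjusted p = 0.000166). Flna, the actin crosslinker filamin A, stood at 270.0, 296 and 268 CPM in GFPhi and 444, 466 and 446 CPM in GFPlow (-0.70 ± 0.06, adjusted p = 0.000372). Rflnb, which binds filamin, differed by -2.58 ± 0.23, in the same direction as Flna. Bicd1, an adaptor of dynein, was higher (3.80 ± 0.41), as were Coro2a (2.67 ± 0.25), Arhgap20 (3.56 ± 0.35) and Myo3b (2.72 ± 0.20), whereas Myo10 (-2.57 ± 0.41), Myo1f (-1.09 ± 0.19) and Rasgrp2, which activates integrins through Rap1, were lower (-0.88 ± 0.07). The myosin genes were thus called in both directions.

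Of 33 cell cycle genes 5 were higher and 1 lower. Their median was 0.72, and 29 had a log2 fold change above 0. Their summed level overlapped between the groups, at 4111.3, 3546.1 and 3103.5 CPM in GFPhi and 2576.8, 2598.6 and 3272.6 CPM in GFPlow. The calls were led by the G1 kinase gene Cdk6 (1.48 ± 0.18) and the replication helicase gene Mcm6 (0.73 ± 0.11), with the cyclin gene Ccnd3 lower (-0.52 ± 0.08). When GFPhi library 1 or 2 or GFPlow library 1 was omitted, 3 were higher. Mki67, the proliferation marker, was not called, at 101, 64.9 and 32.9 CPM in GFPhi and 17.2, 27 and 45.9 CPM in GFPlow (1.14 ± 0.45, adjusted p = 0.163). Of 34 interferon-stimulated genes 3 were higher (8.82%, beside 6.87% of all genes tested), or 5 without GFPhi library 1. The 3 were the guanylate-binding protein genes Gbp3 (1.78 ± 0.13) and Gbp7 (0.76 ± 0.12) and the GTPase gene Iigp1 (1.01 ± 0.16). Among 18 follicular helper genes, P2rx7, a receptor for extracellular ATP (1.43 ± 0.12), and Slamf1 (1.46 ± 0.10) were higher together with Cd200. Among 24 chromatin regulator genes 3 were lower and 1 higher (12.5% and 4.17%, beside 5.48% and 6.87% of all genes tested). The lower ones were the remodeller gene Chd7 (-1.44 ± 0.16), the corepressor gene Ncor1 (-0.32 ± 0.06) and Tet3, an enzyme of DNA demethylation (-0.37 ± 0.07, not called without GFPhi library 2 or GFPlow library 2). The higher one was the deacetylase gene Hdac9 (2.37 ± 0.49), which was not called without GFPhi library 2 or 3 or GFPlow library 1. Among 20 S100, annexin and galectin genes 4 were higher and 3 lower. Cd81, a tetraspanin (2.09 ± 0.21), and Anxa4 (1.51 ± 0.24) were higher with any 1 library left out. The calls of Ahnak (0.61 ± 0.14) and Cd82 (0.64 ± 0.14), both higher, and of Cd9 (-0.53 ± 0.11), Anxa2 (-0.64 ± 0.15) and S100a11 (-0.32 ± 0.08), all lower, were lost without GFPhi library 1, and the list then counted 2 higher and 0 lower. Omitting GFPhi library 2, GFPlow library 1 or GFPlow library 3 left 2 higher as well, and 0 or 1 was lower without any 1 library other than GFPhi library 3.

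**Figure D4:**
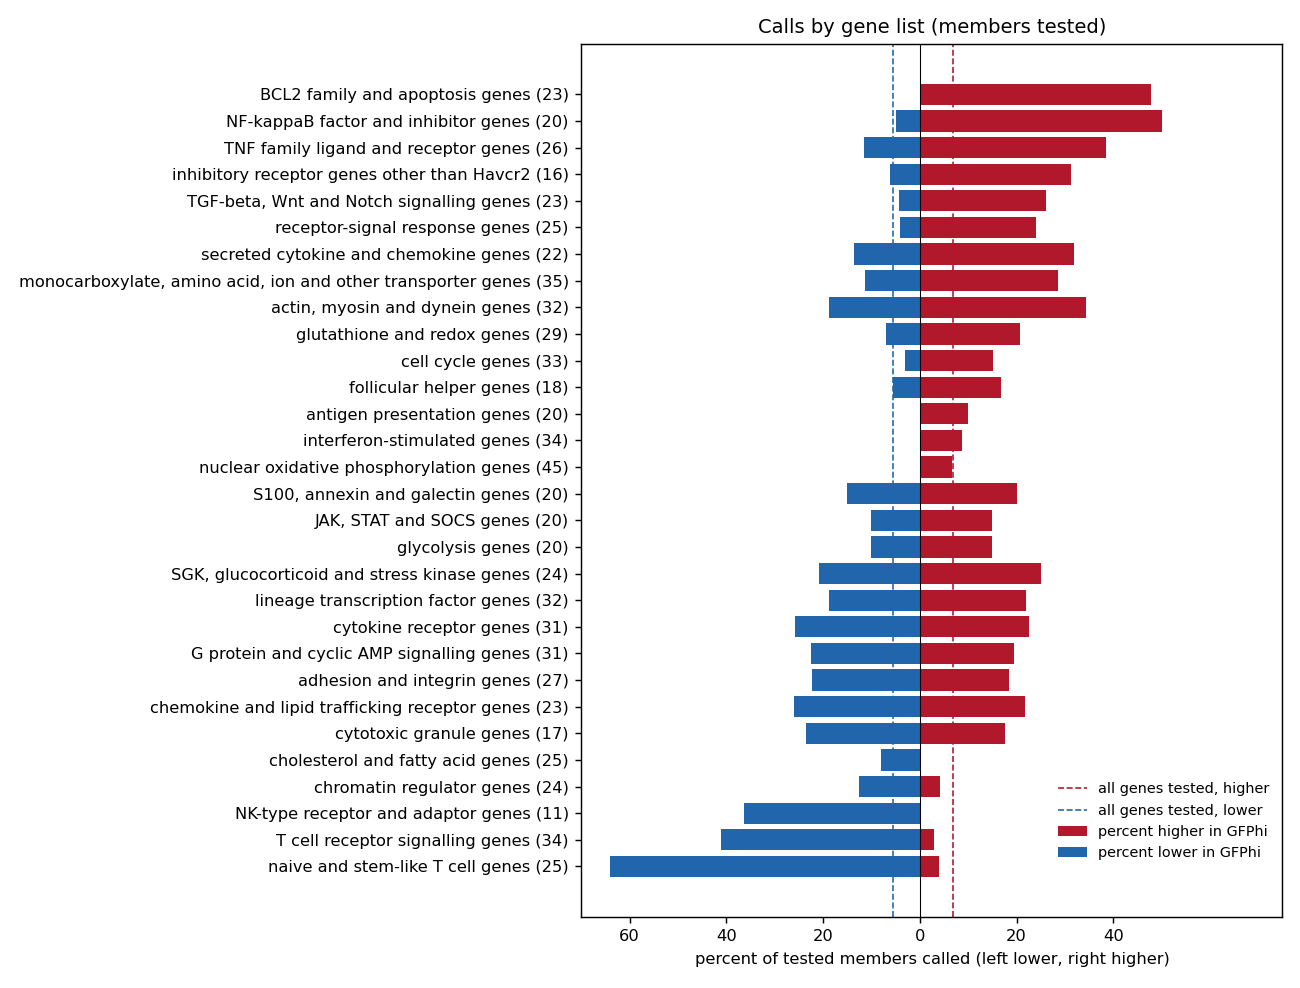
Percent of the tested members of 30 gene lists that were called higher in GFPhi (red, right) or lower (blue, left); the number tested stands in parentheses and dashed lines mark 6.87% higher and 5.48% lower among all genes tested. The apoptosis and NF-kappaB lists have the longest red bars (11 of 23 and 10 of 20) and the naive list the longest blue bar (16 of 25).

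Some genes varied more among libraries of 1 group than between the groups. Fos, an immediate early gene, stood at 162, 9.79 and 7.13 CPM in GFPhi and 206, 11.3 and 10.8 CPM in GFPlow. Jun stood at 91.1, 7.69 and 7.53 CPM in GFPhi and 59, 4.44 and 5.56 CPM in GFPlow, and Junb at 504, 214 and 208 CPM in GFPhi and 399, 151 and 159.5 CPM in GFPlow. The libraries numbered 1 were the highest of each group for these 3 genes. Lyz2, a macrophage lysozyme, stood at 1.25, 0.259 and 5.18 CPM in GFPhi and 15.8, 0.235 and 209 CPM in GFPlow and Apoe, an apolipoprotein of macrophages, at 2.14, 3.43 and 22.3 CPM in GFPhi and 26.8, 5.47 and 54 CPM in GFPlow, both highest in the libraries numbered 3. Gzmb, which encodes granzyme B, stood at 9.08, 42.1 and 19.4 CPM in GFPhi and 17.3, 2.31 and 21.8 CPM in GFPlow, with the 2 groups overlapping. Ccnb2, a mitotic cyclin, stood at 63.6, 45.4 and 26.4 CPM in GFPhi and 6.66, 19.8 and 53.7 CPM in GFPlow, again with overlap. Among 9157 genes with a mean log2 level above 3, 22 spanned more than 4-fold among the GFPhi libraries and 39 among the GFPlow libraries, 28 of the latter with GFPlow library 3 highest.

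**Figure D5:**
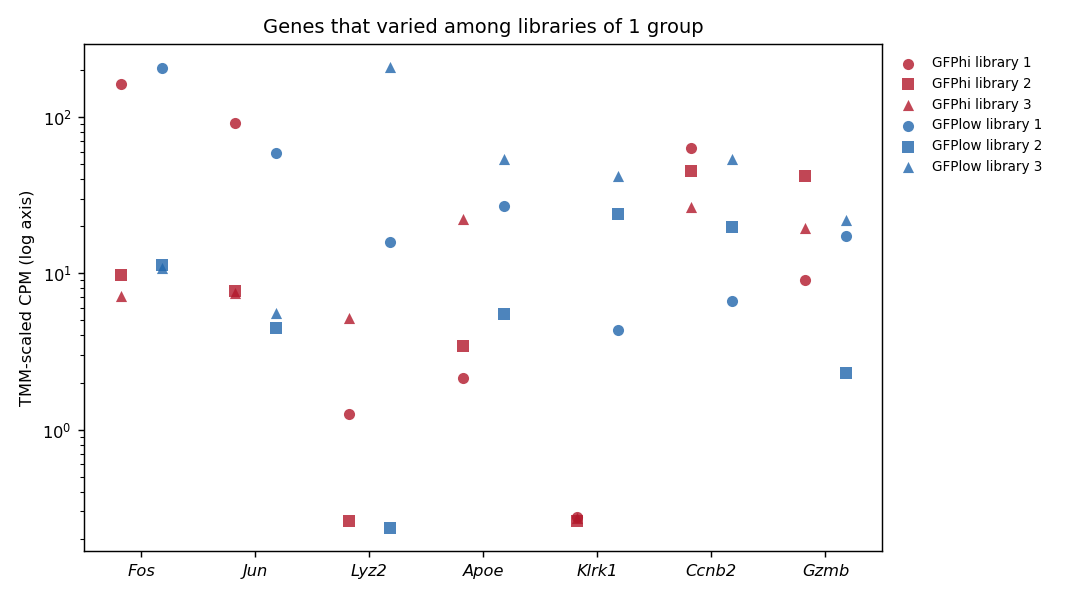
TMM-scaled CPM (log axis) of 7 genes in each library, red GFPhi and blue GFPlow, with the symbol giving the library number. Fos and Jun are highest in the libraries numbered 1 of both groups, and Lyz2 and Klrk1 reach their highest levels, 209 and 41.8 CPM, in GFPlow library 3.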

How the data were processed

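Libraries of sorted cells were prepared by SMART-Seq HT and Nextera XT, per the labels' protocols. The authors deposited whole-number counts per Ensembl gene, without normalization. The submitters' processing notes name build GRCm38 and, as tools, R 4.0, edgeR, HTSeq 0.11.2, SAMtools 1.9 and HISAT2 2.1.0; roles, annotation and strand setting were not given in the sources used here. Of 54837 identifiers, 54808 matched GENCODE vM21, which gave symbols and coordinates.

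From these counts, genes were kept by filterByExpr with the 2 groups, libraries were scaled by TMM, and the 6 libraries were fitted with 1 mean per group in edgeR 4.0.16 (R 4.3.3; robust quasi-likelihood, 4 residual degrees of freedom, two-sided, Benjamini-Hochberg). Alternatives used limma 3.58.1, DESeq2 1.42.0, other scalings, filters and library sets, and the replicate number as a block. The script was tested on simulated data. Lists (30 of biology, 11 of other cells) were described by counts and medians, without a set test; setting genes with 0 counts in a group to a floor of 3 counts moved no list median. The members and lists were chosen with earlier results of these data known.

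Genes were named by rule: the markers; the 12 largest rises and falls among called genes with mean log2 CPM above 3 (pseudocount 0.5), no overlap and outside the Treg identity list, without predicted genes, pseudogenes and receptor segments; up to 4 members per list by adjusted p; other-cell markers; and the 5 genes with the widest range within a group. Other genes named were chosen after their values were seen. Promoters are RefSeq sequences (GRCm38.p6). Deposited counts carry no molecular identifiers. A few list members count in the totals but are not reported here by name.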

Additional observations from a re-analysis of the deposited data

How the results depend on the processing

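The 2105 calls (1171 higher, 934 lower) became 2018 to 2237 under other scaling, filters, limma voom or no robust estimation. DESeq2 called 3150 genes, with 1465 lower. A test for a log2 change beyond 1 called 350 (242 higher, 108 lower, 69.1% higher). With both WT libraries in the fit 426 were called (308 higher, 118 lower, 72.3% higher), and without WT library 1, a fit chosen after seeing the data, 1984. With 1 library left out there were 1254 to 1661 calls (678 to 986 higher, 569 to 734 lower), and with both libraries of 1 number left out 632 to 1440 (370 to 867 higher, 262 to 573 lower). Every gene called both in a given alternative and in the reported fit kept its direction.

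The replicate number as a block gave 1752 calls (985 higher, 767 lower), and with 1 pair left out too 821, 499 and 1523 (472, 302 and 921 higher; 349, 197 and 602 lower). Deviations of same-numbered libraries correlated at 0.083, 0.09 and 0.16. Each library correlated best with its own number, a hint from the data and not from the labels, which do not say what a number marks. Of 141 named genes that were called, 4 lost the call under the block (Cox7b, Acadm, Pou2af1 and Col1a2) and 123 kept it whichever single library was left out. Nr4a1, Nr4a3 and Irf4, named outside that rule, also lost their calls under the block. Genes near 0 counts in a group have no reliable fold, and counting limits cover counting error only.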

Other observations

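Noncoding RNAs and antigen receptor segments were in no list above, and the genes named here were chosen after their values were seen. Of 596 long intergenic noncoding RNA genes tested, 36 were higher in GFPhi and 35 lower, beside 6.87% higher and 5.48% lower among all genes tested. Mir155hg, the host gene of the microRNA miR-155, stood at 59.5, 59.5 and 53.1 CPM in GFPhi and 9.86, 15.8 and 15.4 CPM in GFPlow (2.07 ± 0.19, adjusted p = 0.000546). Flicr, a noncoding gene beside Foxp3, stood at 16.5, 27.5 and 25 CPM in GFPhi and 1.58, 0.705 and 2.38 CPM in GFPlow (3.88 ± 0.44, adjusted p = 0.00144), and the strand setting of the counts is not given in the sources used here, so its reads and those of an overlapping gene cannot be told apart. Of 112 T cell receptor variable segments tested, 1 was higher and 7 lower, beside the same shares of all genes tested. Trbv12-1 was the higher one, at 64.6, 70.2 and 36 CPM in GFPhi and 14.2, 14.1 and 14.4 CPM in GFPlow (2.0 ± 0.24, adjusted p = 0.00184), and GFPhi library 3 was the lowest of its group. Trav14-3 was lower, at 13, 9.41 and 8.41 CPM in GFPhi and 21.2, 34 and 24.8 CPM in GFPlow (-1.38 ± 0.23, adjusted p = 0.00841). Trac, the constant region of the receptor alpha chain, was also lower, at 1299.5, 1394 and 1488 CPM in GFPhi and 1900.0, 1957 and 1900.4 CPM in GFPlow (-0.46 ± 0.06, adjusted p = 0.00201). No group overlapped the other for these genes, and variable segments are similar enough that reads could be divided among them.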
